A study of Mus musculus with 9 samples.

Results

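Pou5f1, Sox2, Sall4, Lin28a, L1td1 and Utf1, 6 genes that are highly expressed in pluripotent cells, were followed in embryonic stem cells of the mouse line E14, of which 9 clones were analysed. The 6 genes were taken by symbol from 35532 gene symbols, and estimated counts and TPM (transcripts per 1000000, a level scaled for transcript length and library size) were summed over the transcripts of each gene. All 6 passed the filter of a mean of 1 CPM (counts per 1000000, scaled by the effective library size) that 13364 genes passed. Per the labels, the clones were isolated from the bulk line and differ in the size of their lipid droplets. The cells were grown on gelatin in GMEM with foetal bovine serum and leukaemia inhibitory factor, and poly(A) RNA was sequenced from stranded libraries. Which clone had which droplet size is not stated in the labels used here, so no groups were formed. Each of clones 1, 4, 6, 8, 10, 11, 13, 14 and 17 is 1 sample, and nothing separates a difference between clones from one between cultures of a clone.

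Pluripotent cells hold a network of transcription factors that keep one another expressed. Oct4, the product of Pou5f1, and Sox2 bind DNA side by side at many enhancers, their own included, and Sall4 is a zinc finger factor that joins them and also recruits the nucleosome remodelling and deacetylase complex NuRD. Lin28a is an RNA-binding protein that blocks the maturation of let-7 microRNAs, L1td1 is an RNA-binding protein derived from a LINE-1 transposon and found with LIN28 in human embryonic stem cells, and Utf1 is a chromatin-bound protein at genes with both activating and repressive marks. Cells that leave the naive state lower Nanog and other naive genes early, while Pou5f1 is kept for longer.

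The libraries held 10783718 to 14309662 estimated counts, with clone 1 the lowest, and 0 counts in a clone allow up to 0.209 to 0.292 CPM. As a check of the label, the embryonic stem cell markers Nanog, Zfp42, Esrrb, Tdgf1 and Dppa4 were added up, giving 1799 and 1544 CPM in clones 10 and 11 and 2223 to 2433 CPM in the other 7. Esrrb had 382 and 369 CPM in clones 10 and 11, against 562 to 716 CPM, and Nanog 264.5 and 248.6 CPM, against 279.5 to 536.5 CPM. Tdgf1, at 315 and 343 CPM, lay within the 267 to 372 CPM of the other clones. Zfp42 and Dppa4 were lowest in clone 11, at 489 and 95.4 CPM. Clone 10, at 710 and 126 CPM of these, lay above clone 13, at 661 and 124.5 CPM. Some markers of other cell types also set clones 10 and 11 apart. The 5 mesoderm and primitive streak markers summed to 30.9 and 56.4 CPM there, against 4.79 to 14.3 CPM elsewhere. Among them, T had 9.20 and 28.2 CPM, against 0.365 to 2.36 CPM, and Wnt3 11.2 and 14.05 CPM, against 0.934 to 3.28 CPM. Hand1 had 2.97 and 3.145 CPM, against 0.146 to 0.698 CPM. Mixl1 had 0.797 and 3.075 CPM, against 0.305 to 0.680 CPM. Eomes, at 6.74 and 7.87 CPM, did not set clone 10 apart, since clone 4 had 7.795 CPM. The 6 trophoblast markers summed to 499 and 534 CPM, against 69.9 to 165 CPM, but the keratins Krt8 and Krt18 made up 445 and 459.9 CPM of this. The other 4, Tfap2c, Eomes, Cdx2 and Gata3, summed to 54.1 and 74.4 CPM, within the 44.2 to 92.1 CPM of the other clones. Most of that sum was Tfap2c, at 42.45 and 58.8 CPM, which lay within the other clones, as did Gata3, at 1.76 and 2.10 CPM. Cdx2 was highest in clones 10 and 11, at 3.115 and 5.66 CPM, against 0.487 to 3.05 CPM elsewhere. The 4 neural markers summed to 252 and 208 CPM, against 130 to 163 CPM, of which Nes alone was 106 and 98.7 CPM, against 14.4 to 28.6 CPM. Sox1, Pax6 and Tubb3 together had 146 and 109.7 CPM in clones 10 and 11, and 114 to 141 CPM elsewhere. The 6 fibroblast and feeder markers summed to 48.2 and 56.1 CPM in clones 10 and 11, against 2.63 to 12.96 CPM. Of these, Col1a1 had 33.4 and 42.5 CPM and Col1a2 8.77 and 7.90 CPM in those clones. Pdgfrb did not set them apart, at 5.80 and 4.61 CPM there and 1.60 to 5.56 CPM elsewhere. Lum, Dcn and Postn reached no more than 0.0762, 0.629 and 0.489 CPM in any clone, Dcn and Postn highest in clone 11. The 7 primitive endoderm markers summed to 6.41 to 11.8 CPM. The part of these other cell types in the results below was not tested, and values without clones 10 and 11 are given for the 6 genes and for the counts over the gene lists.

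The 6 genes stayed within a 1.94-fold span over all 9 clones. Their ranges, differences in log2 CPM between the highest and the lowest clone, ran from 0.35 for Sox2 to 0.96 for L1td1, with a median of 0.56. Over all 13364 genes the median range was 0.78, and over the 2265 genes of at least 100 CPM it was 0.56. A range of 1 log2 unit or more was found for 0 of the 6 genes and for 4705 of all genes (35.2%). A range of 2 or more was found for 0 of the 6 and for 1060 of all genes (7.93%). All 6 nevertheless differed between libraries beyond counting noise (a chi-square test of the counts against Poisson sampling, with Benjamini-Hochberg adjustment over all genes), as did 11941 of all genes (89.4%). Without clones 10 and 11 the ranges of Sall4, Lin28a, L1td1 and Utf1 stayed the same, those of Pou5f1 and Sox2 are given with each gene, and 3682 of all genes (27.6%) had a range of 1 or more. In these bulk samples, fewer cells that express a gene and less RNA per cell cannot be told apart.

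**Figure D1:**
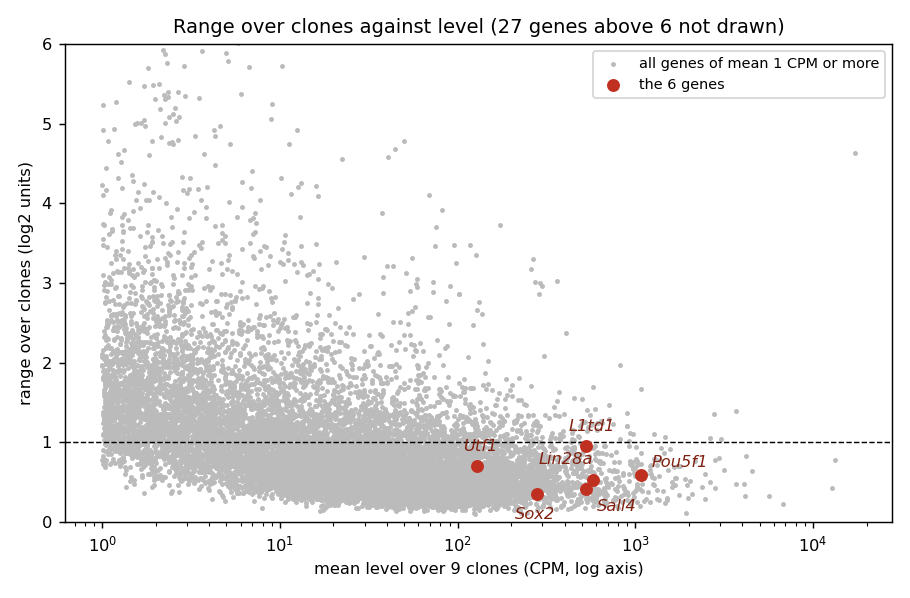
Range over the 9 clones (log2 units, vertical axis) against mean level (CPM, log horizontal axis) for the 13364 genes of mean 1 CPM or more, grey, and the 6 genes, red, with a dashed line at a range of 1 and 27 genes above 6 not drawn. All 6 genes lie under the line, L1td1 closest to it at 0.96 and Sox2 lowest at 0.35.

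Pou5f1 (chromosome 17, 35506018 to 35510772, plus strand, GRCm38) was the most abundant of the 6. Its 9 levels, for clones 1 to 17 in numerical order, were 1019, 1166, 1107, 1146, 939, 852, 978, 1180 and 1288 CPM. Clone 17 was the highest and clone 11 the lowest, 1.51-fold apart (95% interval 1.48 to 1.55, counting error only, as in all intervals here). The range of 0.60 was larger than that of 33.0% of all genes and of 54.9% of the genes of at least 100 CPM. Ordered from clone 11 upward, 6 of the 8 neighbouring pairs had counting intervals that did not overlap. Those of clones 8 and 4 and of clones 4 and 14 overlapped, which does not show that their levels were equal. More counts give intervals that are narrower for their level, and Pou5f1 had 10456 to 17933 estimated counts. Numbers of separated pairs therefore do not compare between the 6 genes, and they were not taken over all genes. Clones 11, 10 and 13 were the lowest 3. Without clones 10 and 11 the range was 0.40.

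Scaled for length, Pou5f1 was at 1059, 1312, 1259, 1300, 1103, 1090, 1196, 1345 and 1472 TPM in the same order of clones, and it ranked between 109 and 135 among all genes of its clone. On this scale clone 1, and not clone 11, was the lowest. Pou5f1-201, the main transcript, was by itself lowest in clone 11, at 1026 TPM, with clone 1 at 1056 TPM and clone 17 again highest, at 1398 TPM. Genes within 5 Mb of Pou5f1 (147 genes) lay at a median of -0.03 log2 units in clone 11, where Pou5f1 lay at -0.38 from its own median over the clones.

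RefSeq gives Pou5f1 an upstream and an internal start region, shown here because the estimated share of the transcripts that start at the internal one varied between clones. The sequences, from 250 bases before to 50 bases after each start, are from RefSeq (GRCm38.p6), plus strand, chr17:35505782-35506081 for the upstream start and chr17:35508557-35508856 for the internal start, and capitals mark a match to the SOX core CATTGT on the reverse strand.
Pou5f1 upstream start: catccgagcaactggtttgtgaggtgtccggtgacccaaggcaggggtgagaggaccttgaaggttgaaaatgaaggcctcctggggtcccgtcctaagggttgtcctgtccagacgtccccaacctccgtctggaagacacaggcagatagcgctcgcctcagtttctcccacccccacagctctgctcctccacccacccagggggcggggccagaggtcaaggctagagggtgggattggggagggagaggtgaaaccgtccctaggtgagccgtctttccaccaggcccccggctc
Pou5f1 internal start: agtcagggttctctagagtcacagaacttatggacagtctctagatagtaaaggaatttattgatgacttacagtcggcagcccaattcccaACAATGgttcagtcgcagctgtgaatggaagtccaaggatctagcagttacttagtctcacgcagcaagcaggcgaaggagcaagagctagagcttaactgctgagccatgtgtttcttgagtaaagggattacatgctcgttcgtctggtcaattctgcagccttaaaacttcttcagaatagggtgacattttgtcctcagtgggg

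The upstream start lies 14 bases from the start of Pou5f1-201, the transcript with 5 exons that encodes full-length Oct4, and the internal one at base 35508807 lies within 20 bases of the starts of Pou5f1-202, Pou5f1-203, Pou5f1-204 and Pou5f1-206. Pou5f1-201 took 97.1 to 99.8% of the gene's estimated counts, with a median of 98.5%. Pou5f1-202, of 435 bases, has a first exon of 29 bases at 35508805 to 35508833 that lies outside the exons of Pou5f1-201. Its estimated counts in clones 1 to 17 were 0, 352, 55, 0, 71, 161, 335, 241 and 185. The transcript was therefore listed at 0 in clones 1 and 8 and reached 2.30% of the gene's counts in clone 4 and 2.59% in clone 13. Taking 3 counts as the limit of a count of 0, the share could be up to 0.0287% in clone 1 and 0.0187% in clone 8, a limit that covers counting alone. These are estimates that divide reads among overlapping transcripts, and whether the transcripts or the division of reads differed between clones was not tested.

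Because the short transcript is scaled up by its length, it stood for up to 9.62% of the gene's TPM, with 114 TPM in clone 4 and 115 TPM in clone 13. Of the 405 words of 31 bases in Pou5f1-202, 26 occur in no other transcript of the gene. The remaining 4 transcripts took at most 0.305% of the counts each. Pou5f1 shares 110 of its 2297 such words (4.79%) with the pseudogenes Gm18927, Gm21054, Gm5712 and Gm6539, all listed at 0 counts in all 9 clones.

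**Figure D2:**
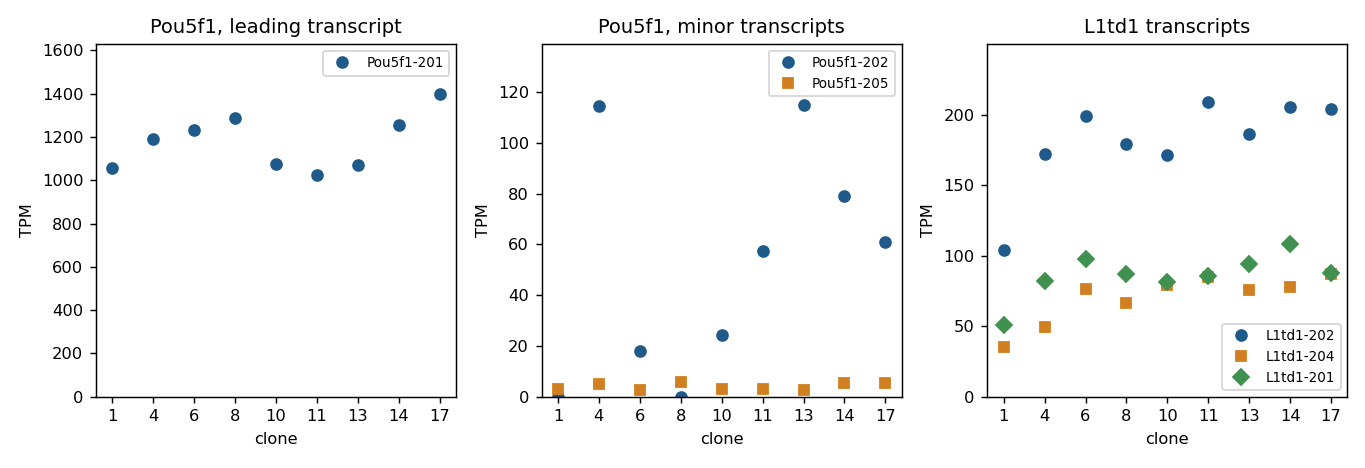
TPM (vertical axes, from 0) of transcripts of Pou5f1 and L1td1 in each of the 9 clones (horizontal axes). Pou5f1-201 lies between 1026 and 1398 TPM, Pou5f1-202 is at 0 in clones 1 and 8 and at 115 TPM in clone 13, and the 3 main L1td1 transcripts are all lowest in clone 1.

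Sox2 (chromosome 3, 34650405 to 34652461, plus strand), the partner of Oct4, is a gene with a single exon and had 1 transcript in the tables. It was the steadiest of the 6. Its levels in clones 1 to 17 were 295, 257, 289.9, 297, 250.2, 236, 288, 301 and 288 CPM. Clones 11, 10 and 4 were the lowest 3, the other 6 lay within 288 to 301 CPM, and clone 14 was 1.28-fold above clone 11 (interval 1.22 to 1.34). The range of 0.35 exceeded that of 8.3% of all genes and of 17.6% of those of at least 100 CPM. The only neighbours with intervals that did not overlap were clone 4 and clone 13, 1.118-fold apart. Without clones 10 and 11 the range was 0.23.

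In TPM, Sox2 was at 195, 173, 207, 214, 184, 184, 208, 208 and 202, with clone 4 lowest and clone 8 highest, so the order of the extremes depended on the scale. Its ranks lay between 677 and 862. Genes within 5 Mb (40 genes) lay at a median of 0.0 in clone 11, where Sox2 lay at -0.28. Of its 2027 words, 18 (0.888%) occur in Sox1, Sox21 or Sox3, and Sox2ot, a noncoding gene on the same strand that spans Sox2, was not used here.

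The Sox2 start region is shown for its octamer, the kind of sequence that Oct4 binds. It is from RefSeq (GRCm38.p6), plus strand, chr3:34649745-34650044, and capitals mark the octamer core ATGCAAA, which begins 99 bases before the start at base 34649995. That start lies before the one of the GENCODE transcript.
Sox2 start region: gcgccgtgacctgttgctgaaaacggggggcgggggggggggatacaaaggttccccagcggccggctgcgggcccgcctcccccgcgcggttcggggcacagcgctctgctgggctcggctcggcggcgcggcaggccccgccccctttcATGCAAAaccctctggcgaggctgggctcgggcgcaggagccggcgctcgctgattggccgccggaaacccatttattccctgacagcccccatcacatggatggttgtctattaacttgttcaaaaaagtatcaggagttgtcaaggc

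The octamer core was found in 1520 of 32851 RefSeq promoters of the same length (4.63%, both strands), and among 6 promoters of 5 of the genes in that of Sox2. The SOX core CATTGT was found in 4129 promoters (12.57%), those of Lin28a and the internal start of Pou5f1 included. Joined with 1 free base between them, as CATTGTNATGCAAA, they were found in 2 promoters (0.01%) and in none of the 6, and the shorter CATTGTNATGC was found in 20 (0.06%) and in none of the 6. The octamer core is part of the longer joint motif, and the known joint sites of several of these genes lie in enhancers outside these windows. The promoters of L1td1, Utf1 and the upstream start of Pou5f1 held no match.

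The ratio of Pou5f1 to Sox2 in TPM was 5.42, 7.60, 6.09, 6.08, 5.995, 5.92, 5.76, 6.46 and 7.28 in clones 1 to 17. Its median was 6.08 and its span 1.40-fold, with clone 1 lowest and clone 4 highest. In estimated counts, which are not scaled for length, the median ratio was 3.82. Of the 15 pairs of the 6 genes, Sall4 and Lin28a kept the steadiest TPM ratio, between 0.719 and 0.851, a span of 1.18-fold. The widest spans were those of Sox2 to L1td1 (2.10-fold) and Pou5f1 to Utf1 (2.02-fold).

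Sall4 (chromosome 2, 168748332 to 168767943, minus strand) lay at 460.2, 523, 543, 517, 535, 550.4, 475, 613 and 555 CPM in clones 1 to 17. Clone 14 was the highest and clone 1 the lowest, 1.33-fold apart (interval 1.29 to 1.38). Clones 8, 4, 10, 6, 11 and 17 formed an unbroken run in which the intervals of all neighbours overlapped. Clones 1 and 13 lay below that run and clone 14 above it. The range was 0.41, larger than in 14.1% of all genes and in 28.1% of those of at least 100 CPM. Without clone 14 it was 0.27. In TPM it was at 153, 174, 198, 178, 191, 214, 167, 213 and 194, with clone 11 as the highest.

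Sall4-201, the full-length form, took 94.1 to 96.7% of the counts and a median of 75.02% of the TPM, which weighs short transcripts up. Sall4-203, which has the same outer ends but is shorter (3741 against 5073 bases), had 185 estimated counts in clone 11, 2.36% of the gene. It had 30 to 90 counts in the other 8 clones, between 0.407% and 1.21%. All 3741 bases of Sall4-203 lie in exons of Sall4-201, and 26 of its 3711 words occur in no other transcript of the gene. Whether the transcript or the division of reads differed in clone 11 was not tested. Sall4-206, of 773 bases, took between 1.97% in clone 8 and 3.23% in clone 11. Sall4 shared no 31-base word with another gene. Noncoding genes on the opposite strand overlap Pou5f1, Sall4 and Lin28a and were not used here, and no source used here gives the strand setting of the counting.

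Lin28a (chromosome 4, 134003330 to 134018841, minus strand) was at 459.7, 616, 552, 589, 561, 589, 531, 664 and 632 CPM. As for Sall4, clone 1 was lowest, clone 13 next and clone 14 highest, 1.44-fold above clone 1 (interval 1.39 to 1.496). Its range of 0.53 was larger than in 26.3% of all genes and in 46.4% of those of at least 100 CPM. Without clone 1 the range was 0.32. Of the 8 neighbouring pairs, 4 had counting intervals that did not overlap, the widest being clones 1 and 13, 1.16-fold apart. In TPM it lay at 186, 242, 233, 247, 241, 267, 229, 274 and 260.4. Lin28a-201 took 99.3 to 99.8% of the counts, and no word was shared with another gene.

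The start region of Lin28a is printed for its match to the SOX core, in capitals, which begins 96 bases before the start. It is from RefSeq (GRCm38.p6), minus strand, chr4:134018767-134019066.
Lin28a start region: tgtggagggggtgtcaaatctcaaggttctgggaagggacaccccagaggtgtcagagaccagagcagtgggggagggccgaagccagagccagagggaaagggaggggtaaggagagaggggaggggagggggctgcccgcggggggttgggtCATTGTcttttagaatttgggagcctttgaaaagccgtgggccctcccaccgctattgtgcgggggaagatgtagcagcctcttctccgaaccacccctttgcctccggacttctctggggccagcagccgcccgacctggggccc

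Lin28a and let-7 repress one another, and the stretches of Lin28a that match the let-7 seed are shown for that reason. The first line is mature mmu-let-7a-5p (chr13:48538239-48538260, minus strand, RefSeq GRCm38.p6), with its seed, bases 2 to 8, in capitals. The other lines are the stretches of the 3′ untranslated region of Lin28a-201 that pair with this seed, at positions 909 and 1547 of its 2775 bases (chr4:134005189-134005211 and chr4:134004551-134004573, minus strand, GRCm38), with the letters CTACCTC in capitals.
mmu-let-7a-5p: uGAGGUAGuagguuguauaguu
Lin28a-201 site at 909: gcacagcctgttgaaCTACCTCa
Lin28a-201 site at 1547: gagatcgccacaaacCTACCTCa

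A match is a description of the sequence, and mature microRNAs were not measured in these poly(A) libraries.

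L1td1 (chromosome 4, 98726734 to 98738480, plus strand) had the widest range of the 6, and clone 1 set it. The gene was at 319.7 CPM in clone 1, against 504, 583, 514, 509, 561, 546, 621 and 616 CPM in clones 4 to 17. The gap from clone 1 to the next clone, clone 4, was 1.58-fold, and the other neighbours lay no more than 1.06-fold apart. Clone 14, the highest, exceeded clone 1 by 1.94-fold (interval 1.87 to 2.02), a range of 0.96. That range was larger than in 62.5% of all genes and in 86.0% of those of at least 100 CPM. Without clone 1 it was 0.30.

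In TPM, L1td1 was at 192 in clone 1 and at 304, 373, 333, 334, 381, 357, 391 and 379 in the others. On this scale its range was 1.03, and with total counts as the only scaling 1.01, both past the 1 log2 unit that it missed with TMM factors. The genes within 5 Mb (34 genes) lay at a median of -0.01 in clone 1, where L1td1 lay at -0.77. Clone 1 had the smallest library, and protein-coding genes in the longest quartile of transcript length lay at a median of -0.07 there and those in the shortest at 0.09. The part of transcript length in the level of L1td1, whose 2942 bases fall in the 3rd quartile, was not tested.

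All 3 main transcripts of L1td1 were lowest in clone 1. L1td1-202, which spans the whole gene, was at 104 TPM in clone 1 and at 171 to 209 TPM elsewhere. L1td1-201, a short form of the 5′ exons, was at 51.2 TPM in clone 1 and at 81.4 to 108 TPM elsewhere. L1td1-204, which starts inside the gene at base 98733203, was at 35.5 TPM in clone 1, 49.6 TPM in clone 4 and 66.5 to 86.7 TPM elsewhere. Their shares of the counts moved less, L1td1-202 taking 66.9 to 74.4%, L1td1-204 18.4 to 26.7% and L1td1-201 5.76 to 7.42%. For L1td1-204 the lowest share was in clone 4 and the highest in clone 10. Of the 3224 words of the gene, 223 (6.92%) are found in other genes.

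Utf1 (chromosome 7, 139943789 to 139945112, plus strand), the lowest of the 6 by its median TPM, followed another order of clones. It was at 107, 111, 157, 96.1, 120.3, 150.1, 148, 143 and 130.3 CPM in clones 1 to 17. Clone 6 was the highest and clone 8 the lowest, 1.63-fold apart (interval 1.53 to 1.75), a range of 0.71. This was larger than in 43.7% of all genes and in 68.3% of those of at least 100 CPM. The intervals of the 8 neighbouring pairs all overlapped, the widest steps being 1.11-fold from clone 8 to clone 1 and 1.09-fold from clone 17 to clone 14. An overlap does not show that neighbours were equal. Fewer counts give intervals that are wider for their level, and Utf1 had only 1095 to 2248 estimated counts. In TPM it was at 125, 131, 198, 122, 156, 207, 188, 174 and 161, with clone 8 lowest and clone 11 highest. Utf1 had 1 transcript and shared no word with another gene.

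Utf1 is rich in G and C (a fraction of 0.635) and lies in the highest quartile of protein-coding genes. Genes of that quartile lay at a median of -0.13 log2 units in clone 8, and those of the lowest quartile at 0.11. Genes within 5 Mb of Utf1 (92 genes) lay at -0.12 there, and Utf1 itself at -0.44. The part of base composition in the low level of Utf1 in clone 8 was not tested.

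**Figure D3:**
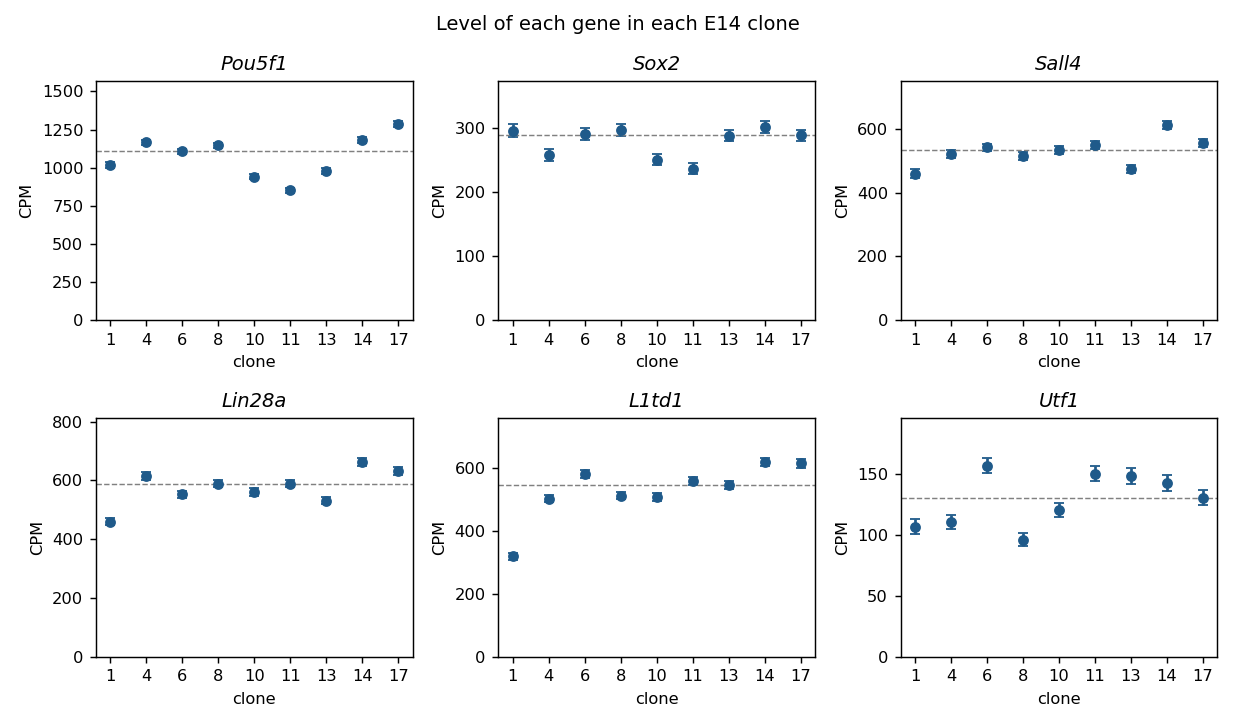
Level (CPM, vertical axes from 0) of each of the 6 genes in each of the 9 clones (horizontal axes), with exact 95% counting intervals and a dashed line at the median over clones. L1td1 in clone 1, at 319.7 CPM, is the point farthest from its gene's other clones.

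Compared per length, the order of the 6 genes by median over the clones was Pou5f1 at 1259 TPM, L1td1 at 357, Lin28a at 242, Sox2 at 202, Sall4 at 191 and Utf1 at 161. Pou5f1 was the highest of the 6 in every clone. The places of Sox2 and Sall4 changed between clones, with Sall4 at 214 and Sox2 at 184 TPM in clone 11, but at 153 and 195 TPM in clone 1. Utf1, at 207 TPM in clone 11, exceeded Sox2 there. In clone 1, L1td1 at 192 TPM lay below Sox2, which it exceeded in each other clone.

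Read by clone, clone 14 lay above the median of all 6 genes and was the highest for 4 of them. The median of its 6 differences was 0.15 log2 units. Among all genes, clone 14 was the highest for 1295 (9.69%). Clone 1 lay below the median for 5 genes and had a median difference of -0.25. It was the lowest for Sall4, Lin28a and L1td1, as it was for 2036 of all genes (15.2%). Its differences were -0.77 for L1td1, -0.36 for Lin28a, -0.29 for Utf1, -0.22 for Sall4 and -0.12 for Pou5f1, while Sox2 lay at 0.04. Clone 11 was lowest for Pou5f1 and Sox2, at -0.38 and -0.28, as it was for 1957 of all genes (14.6%), and lay at 0.20 for Utf1 and 0.04 for Sall4 and L1td1. Clone 10 lay below the median for 5 genes and above it for none. The median over all genes was 0.0 in each clone, and the share of all genes above or below their median in a clone was not counted. These places are in CPM, and some changed by TPM. On that scale clone 1 was lowest for Pou5f1 and clone 4 for Sox2. Clone 11 was highest for Sall4 and Utf1 and clone 8 for Sox2, while clone 14 stayed highest for Lin28a and L1td1.

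**Figure D4:**
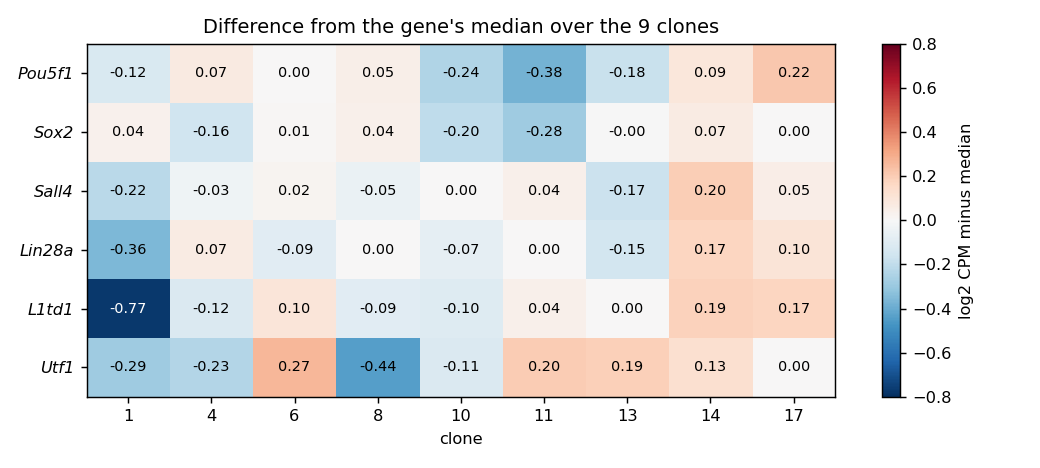
Difference of log2 CPM from the gene's median over the 9 clones (colour and printed values) for the 6 genes (rows) and 9 clones (columns). Blue cells lie below the median, darkest for L1td1 in clone 1 at -0.77, and all 6 cells of clone 14 lie above it.

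Genes that Oct4 and Sox2 control or bind with were described as a list, beside the 6. All 20 listed targets and partners passed 1 CPM, 7 (35.0%) reached a range of 1, and the median was 0.83. The share is close to the 35.2% of all genes. Upp1, uridine phosphorylase, had the largest range, 1.81, at 351, 381, 247, 127, 166, 216, 294, 108 and 115 CPM in clones 1 to 17. Mycn, a proto-oncogene of the Myc family, was at 217, 292, 224, 119, 268, 303, 206, 204 and 130.4 CPM, a range of 1.34. Mycn was highest in clone 11, where Pou5f1 and Sox2 were lowest. Fgf4, a growth factor whose enhancer is a classic site of joint Oct4 and Sox2 binding, was at 126, 138, 128, 214, 109.6, 107, 123, 191 and 238 CPM, a range of 1.16. Like Pou5f1 it was lowest in clone 11 and highest in clone 17. Clone 11 was the lowest for 9 of the 20 genes (45.0%), and for 14.6% of all genes. Without clones 10 and 11, 4 of the 20 reached a range of 1, a smaller share than the 27.6% of all genes. The share of all genes also fell without these clones, from 35.2%. Fgf4, at 0.96, no longer reached a range of 1.

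In the pathway of Lin28 and let-7, 17 of 19 listed names had a transcript and all 17 passed the filter. The missing names, Zcchc11 and Zcchc6, are older symbols of Tut4 and Tut7, which were counted. A range of 1 or more was found for 5 of the 17 (29.4%), against 35.2% of all genes, and the median was 0.77. Hmga2, a chromatin protein and a classic let-7 target, was at 1.85, 5.26, 4.19, 16.7, 14.5, 22.8, 2.64, 11.3 and 15.7 CPM in clones 1 to 17, a range of 3.52. Ccnd2, a cyclin of the G1 phase, had 27.9, 32.6, 48.8, 9.06, 21.01, 23.8, 51.8, 10.6 and 7.33 CPM, a range of 2.80. These 2 genes did not share an order, since Hmga2 was lowest in clone 1 and Ccnd2 in clone 17.

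Igf2bp3, an RNA-binding protein and let-7 target, was at 15.7, 44.8, 29.7, 39.3, 68.2, 42.9, 21.3, 38.1 and 24.6 CPM, a range of 2.11. Lin28b, the paralogue of Lin28a, was lowest in clone 1 too, with 19.3, 22.2, 21.7, 48.0, 46.9, 41.9, 20.97, 43.8 and 46.9 CPM, a range of 1.31. Clones 1, 4, 6 and 13 lay at 22.2 CPM or less and the other 5 at 41.9 CPM or more, a split that Lin28a did not show. Igf2bp1, picked after its values were seen, was the fifth gene past 1, with a range of 1.01. Clone 1 was the lowest for 8 of the 17 genes (47.1%), and for 15.2% of all genes. Without clones 10 and 11, 4 of the 17 (23.5%) reached a range of 1, against 27.6% of all genes, and Igf2bp1 lay at 0.68.

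Of the Sall family and the subunits of NuRD, 14 genes were listed and all passed. The range reached 1 in 5 (35.7%), close to the 35.2% of all genes, and its median was 0.72. The 3 paralogues of Sall4 had wider ranges than the 0.41 of Sall4, and Sall2 and Sall3 had low levels. Sall1 was at 104, 67.2, 123, 167, 104, 90.7, 111, 166 and 175 CPM, a range of 1.38. Sall2 was at 4.68, 8.08, 7.40, 10.99, 24.9, 20.4, 4.61, 10.6 and 8.77 CPM, a range of 2.40, with clones 10 and 11 highest, and of 1.23 without them. Sall3 was at 9.07, 15.1, 7.81, 10.2, 6.96, 8.81, 8.84, 7.58 and 11.6 CPM, a range of 1.10, and of 0.98 without clones 10 and 11. Without those clones 4 of the 14 (28.6%) reached a range of 1, close to the 27.6% of all genes.

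The other genes of that list past 1 were Hdac1 and Gatad2a, a deacetylase and a scaffold subunit of NuRD, picked after their values were seen. Clone 14 was highest and clone 1 lowest for both, with 264 and 126 CPM of Hdac1 and 482 and 233 CPM of Gatad2a, the same extremes as for Sall4. Clone 1 was the lowest for 9 of the 14 genes (64.3%), and for 15.2% of all genes. Clone 14 was the highest for 7 of the 14, and for 9.69% of all genes. Counts of extremes per list were made after the data were seen and are given as a description of these libraries, in which the median of the longest quartile of protein-coding genes lay at -0.07 in clone 1.

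Of 18 other POU and SOX family genes, 13 passed the filter, and Pou2f2, Pou3f2, Pou3f3, Sox9 and Sox17 did not. Among those 13, 8 (61.5%) had a range of 1 or more, as did 35.2% of all genes, and the median was 1.36. Without clones 10 and 11 these were 5 of 13 (38.5%), against 27.6% of all genes, and 0.92. Several of these genes lie at low levels, and of the 4705 genes past 1 in all, 2407 had a mean of at least 5 CPM. Sox1, a neural relative of Sox2, was at 0.683, 0.457, 0.767, 5.28, 0.725, 0.280, 0.453, 2.92 and 7.11 CPM in clones 1 to 17, so that clones 8, 14 and 17 stood above the other 6. Pou3f1, also called Oct6, was at 8.19, 9.99, 6.56, 3.997, 25.9, 31.9, 6.27, 4.52 and 2.95 CPM, with clones 10 and 11 highest, and its range without them was 1.71. Pou6f1 was at 5.75, 13.4, 6.99, 4.08, 5.87, 5.24, 5.81, 3.96 and 2.23 CPM. Sox1, Pou3f1 and Pou6f1 had ranges of 4.08, 3.37 and 2.52, all at low levels. The fourth gene past 2 was Sox15, picked after its values were seen, with a range of 2.22.

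Utf1 is known to share target genes with the Polycomb complex PRC2 and to act on the decapping of their transcripts. Of 7 genes listed for these functions, all passed, 2 (28.6%) reached a range of 1, against 35.2% of all genes, and the median was 0.76. Without clones 10 and 11 the count was again 2 of 7 (28.6%), close to the 27.6% of all genes. Ezh2, the methyltransferase of PRC2, was at 65.3, 85.6, 118, 121, 97.4, 103, 110.1, 143 and 125 CPM, a range of 1.13, with clone 1 lowest and clone 14 highest. Cdkn2a, a PRC2 target that encodes cell cycle inhibitors, was at 1.37, 1.83, 2.16, 4.35, 2.83, 2.24, 2.04, 6.64 and 6.04 CPM, a range of 2.16. Suz12, another PRC2 subunit, was highest in clone 11 with 402 CPM and lowest in clone 17 with 227 CPM, a range of 0.82.

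**Figure D5:**
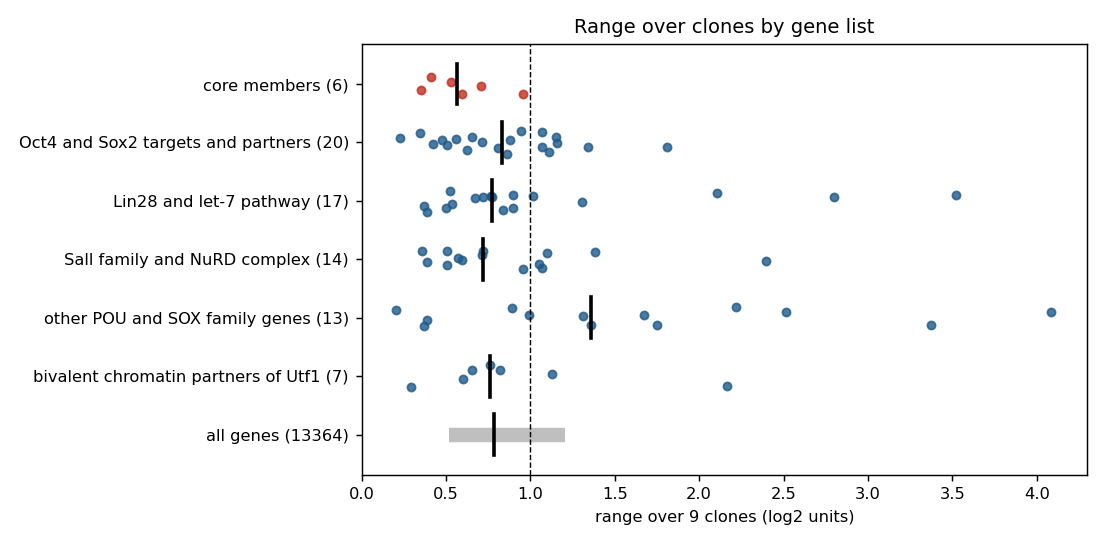
Range over the 9 clones (log2 units, horizontal axis) of each gene of mean 1 CPM or more in 6 lists (rows, with the number of genes), black bars marking medians, and for all genes the median and the span of the middle quartiles in grey. The 6 core genes all lie below 1 (dashed line), and the other POU and SOX genes have the largest median, 1.36.

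Genes with the pattern most like that of each of the 6 were sought among 4104 protein-coding genes of at least 50 CPM, by the root mean square distance between log2 levels over the 9 clones, each centred on its median. For Pou5f1 these were Trim6 at 0.06 and Man1b1 at 0.07, where the median gene lay at 0.24. Sox2 stood in place 243 from Pou5f1, at 0.14. For Sox2, Ppih lay at 0.05, with a median of 0.22. Trim6 itself was at 132, 147, 143, 163, 116, 110.1, 133, 156 and 168 CPM in clones 1 to 17, with clone 11 lowest and clone 17 highest, as for Pou5f1.

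For Sall4 the nearest genes were Gspt1 and Ints5, both at 0.05 with a median of 0.20. For Lin28a they were Rbbp7, of the NuRD list, and Dnajc21, both at 0.05 with a median of 0.22. Of the 6 genes, Lin28a and Sall4 lay closest to each other, at 0.08, in place 25 from Sall4 and place 14 from Lin28a. Trim71, a let-7 target of the Lin28 list picked after its values were seen, stood in place 3 from Sall4 and place 4 from Lin28a, at 541, 674, 679.6, 703, 666, 693, 622, 785 and 677 CPM.

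L1td1 was most like Ppm1g, at 0.06, and Fbl, at 0.08, with a median of 0.32. Ppm1g had 147 CPM in clone 1, against 232 to 313 CPM in clones 4 to 17, and Fbl 139 CPM against 218 to 308 CPM. Both were lowest in clone 1, as L1td1 was. Utf1 was most like Sf3a2 and Pgd, both at 0.10 to 0.11 with a median of 0.31, the largest nearest distance among the 6. A small distance over 9 clones of 1 library each says nothing of shared control.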

How the data were processed

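Poly(A) RNA of 9 E14 clones was sequenced, 1 library each, with a stranded kit per the labels' protocols. The submitters' processing notes name kallisto 0.43.1, Trimmomatic 0.33, FastQC, CASAVA 1.8 and the builds GRCm38 and mm10. Their roles and the annotation release are not given in the sources used here. The tables deposited by the authors give, per the file headers, estimated counts and TPM values for 115270 transcripts. Estimated counts are shared out among similar transcripts and need not be whole. Identifiers of 113580 transcripts (98.53%) matched GENCODE M21 (GRCm38), and the rest held 0.641 to 0.773% of the counts and were left out. Values were summed per gene symbol, so that genes sharing a symbol were joined.

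Levels are CPM from the summed estimated counts, with library sizes and TMM factors (edgeR 4.0.16, R 4.3.3) from rounded counts. The factors were taken from genes of mean 1 CPM or more, and a prior count of 2 was used on the log2 scale. Intervals are exact 95% Poisson or binomial intervals (Wilson for transcript shares) and cover counting error only, not the division of reads between transcripts. The chi-square test against Poisson sampling compares these libraries, not conditions. As the labels give no groups, no fold change between groups was tested, and no correlation over clones was computed. The alternatives were DESeq2 1.42.0 size factors, total counts, log2(TPM + 1), a prior count of 0.5, other minimums and each clone left out. Leaving out clones 10 and 11 and taking Pou5f1-201 alone were added after seeing the data. Genes named are the 6 members, the transcripts with 5% of a member's counts in any clone, up to 3 genes of largest range per list plus Lin28b, and the 2 nearest genes per member, of which 1 is not reported here. Pou5f1-202, Sall4-203 and Sall4-206 fall below that share and were named after their values were seen. The members and lists were chosen with earlier results of these data known. Start regions and the microRNA are from RefSeq (GRCm38.p6), which held 5 of the 6 genes, and motifs were searched on both strands. Python 3.11.15, numpy 2.4.6, pandas 2.3.3, scipy 1.17.1 and matplotlib 3.10.9 were used.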

Additional observations from a re-analysis of the deposited data

Results flagged for a closer look

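L1td1 was at 319.7 CPM in clone 1, and the gap to the next clone took 0.684 of the whole range over the 9 clones, above Dixon's 95% critical value for 9 values. This was 1 of 29 sets of values examined in this way, the levels and transcript shares of the 6 genes included, and chance gives about 1 such value in 20. At that rate, 1 flag among 29 sets is about what chance gives. Transcript shares of the same gene are also not independent of one another.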

How the results depend on the processing

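No paired analysis was possible because the labels give no groups. The range of Pou5f1 (0.60) was 0.53 with total counts, 0.47 with log2(TPM + 1) and 0.40 without clones 10 and 11. That of Sox2 (0.35) was 0.27 with total counts and 0.23 without clones 10 and 11. With log2(TPM + 1), Sall4 had a range of 0.48 and L1td1 one of 1.03. With 1 clone left out, ranges ran from 0.46 to 0.60 for Pou5f1, 0.27 to 0.35 for Sox2, 0.27 to 0.41 for Sall4, 0.32 to 0.53 for Lin28a, 0.30 to 0.96 for L1td1 and 0.55 to 0.71 for Utf1. The count of all genes with a range of 1 or more was 4705 with TMM factors and 3704 with log2(TPM + 1). With 1 clone left out this count ran from 4257 to 4605, and it was 2407 with a minimum of 5 CPM and 11588 with none. By TPM, the leading transcript held a median of 94.99% (Pou5f1), 75.02% (Sall4), 96.6% (Lin28a) and 53.8% (L1td1), against 98.5, 95.9, 99.7 and 69.8% by counts, since TPM divides by length. The ratio of Pou5f1 to Sox2 was 3.82 by counts and 6.08 by TPM for the same reason. Other causes were not tested. Among the lists, leaving out clones 10 and 11 moved the count of POU and SOX genes with a range of 1 or more to 5 (38.5%), against 8 (61.5%) with all clones. Over all genes the shares were 27.6% and 35.2%. DESeq2 size factors and a prior count of 0.5 moved no range by more than its counting error. Each clone is 1 library, which limits every comparison of clones.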
